A study of Mus musculus with 8 samples.

Results

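Normal-looking skin of Cchcr1 mutant mice was compared with normal skin of wild type mice across all measured transcripts, with most attention to genes other than hair keratins and keratin-associated proteins. The comparison used the 6 of 8 skin samples whose labels give the hair phenotype as normal skin, 4 from mutants and 2 from wild type. All mice were of the strain C57BL/6N, the mutants carried a Cchcr1 gene changed by genome editing, and no treatment, age or sex is given. The study asked whether such editing reproduces patchy hair loss of the kind seen in alopecia areata. The comparison here asks which transcripts differed in mutant skin labelled as normal. The labels do not say whether hair had been lost at these sites before. The remaining 2 samples, from hair loss skin of mutants, entered the fit only to help estimate the spread between arrays. Total RNA from whole pieces of skin was labelled with Cy3 and hybridised to Agilent mouse gene expression arrays, 1 array per sample. Because skin was taken whole, fewer cells of a type and less RNA per cell cannot be told apart in any value below.

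The titles of the samples carry a number and a letter that the labels do not explain. Samples B and A of Mutant097, and samples B and A of Mutant113, made up the mutant group, and samples B and A of Wild001 the wild type group. Genotype and title number therefore cannot be told apart. The labels do not say whether samples of 1 number came from 1 animal, so the p-values measure only the spread between these samples, which may be technical. On the slide, Mutant097 lay in row 1, and Mutant113 and Wild001 lay in row 2. An exact permutation test of 4 against 2 samples can be arranged in 15 ways and its smallest two-sided p is 0.0667, so no single gene could pass 0.05 by that route.

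Hair follicles cycle between growth (anagen), regression (catagen) and rest (telogen). During growth, dividing matrix cells at the base of the follicle, next to the dermal papilla, give rise to the shaft, the inner root sheath and the medulla, and melanocytes pass pigment to the shaft. Shaft cells make hair keratins and keratin-associated proteins, while the inner root sheath and medulla make trichohyalin, which peptidylarginine deiminases modify and transglutaminases cross-link. Wnt signals and the factors Lef1, Msx2, Hoxc13, Foxn1 and the Dlx family act in the matrix and the forming shaft. Cchcr1 encodes a coiled-coil protein found at centrosomes and P-bodies, and its gene lies in the region of the major histocompatibility complex that was first mapped for psoriasis susceptibility (PSORS1).

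Levels are given as the log2 of the processed intensity minus the 75th percentile of the array, so that 0 is that percentile. The 75th percentile of intensity ran from 83.1 to 172.4 over the 6 arrays, and between 25510 and 29496 probes were well above background. Sample B of Wild001 was the dimmest on both counts, and sample A of Wild001 reached 160.1 and 27525 probes. Interfollicular epidermis, dermis and appendages were all present. The defining markers Krt15 (follicle bulge), Scd1 (sebaceous gland), Adipoq (adipocyte), Col1a1 (fibroblast) and Acta1 (skeletal muscle) were well above background on all 6 arrays. Of the 7 B cell markers on the array, 2 were bright enough to test. The X-inactivation transcript Xist was high in Mutant113 alone, at 1.12 and 1.15, while the Y-linked genes Ddx3y and Eif2s3y were high only in Mutant097 and Wild001. Mutant113 therefore also differed from Wild001 in sex-linked transcripts, and the part of this in the results was not tested.

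Cchcr1 itself was measured at 0.32 and 0.18 in samples B and A of Mutant097, at 0.03 and -0.04 in samples B and A of Mutant113, and at -0.03 and -0.07 in wild type. The groups overlapped. The log2 change was 0.17 (SE 0.20, limma adjusted p 0.681). A probe of this kind measures transcript and does not read the edited bases, so it does not check the genotype.

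Of 29563 probes tested, 239 (0.808%) differed between mutant and wild type normal skin at a limma adjusted p under 0.05. Most were higher in the mutants, 190 against 49 lower, but the filter on dim probes favoured rises. A probe had to be well above background on at least 2 of the 6 arrays. One seen only in mutants could pass on any 2 mutant arrays, while one seen only in wild type needed both wild type arrays. With probes well above background on all 6 arrays, 45 were higher and 18 lower. With slide row as a block, which leaves only Mutant113 against wild type, 455 were higher and 483 lower. All 239 had every mutant sample outside the wild type range, which follows largely from choosing them by the test. Over all genes 16.9% had all mutants above wild type and 13.9% all below. The change was at least 2-fold, which is 1 on the log2 scale, for 236 of the 239. Of the 190 higher probes, 111 were at background on both wild type arrays, so that the wild type gives only a bound. Hair keratins and keratin-associated proteins accounted for 47 of the higher probes, another 79 had a gene symbol outside these lists, and 64 had none. When each gene was represented by its brightest probe, 105 of 14550 genes (0.722%) rose and 21 (0.144%) fell. Outside the hair lists 65 genes rose. These still held Krt87, a hair keratin absent from the list used, and 9 genes known only by clone or locus identifiers. Keratin-associated proteins were listed by the start of their symbol, so members under locus identifiers were missed. The 65 may therefore include further hair genes.

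**Figure D1:**
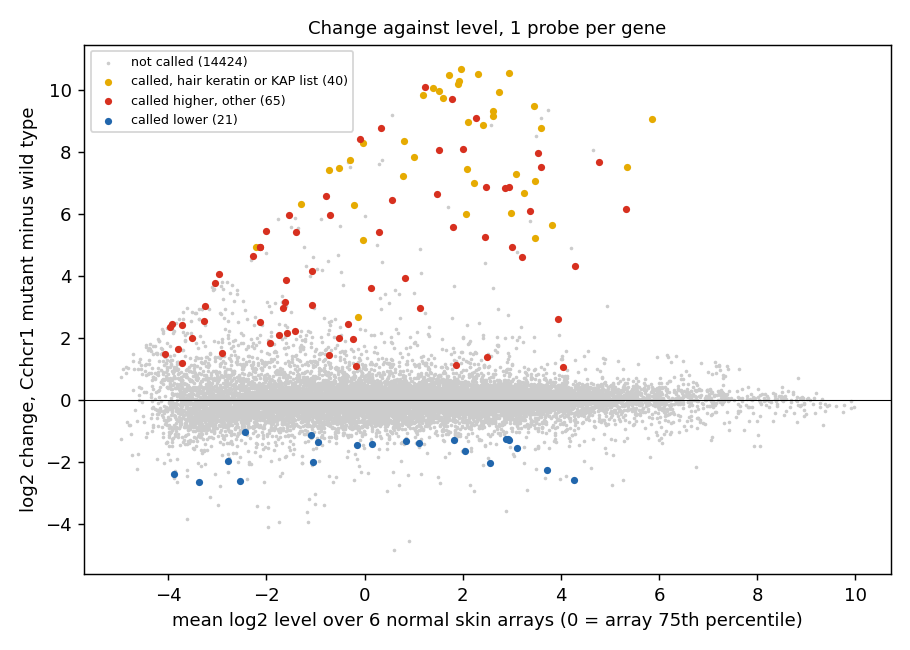
Each point is 1 of 14550 genes; the horizontal axis is the mean log2 level over the 6 normal skin arrays and the vertical axis the log2 change, mutant minus wild type. The 105 called rises reach 10.69, while the 21 called falls lie between -1.02 and -2.62.

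The calls rested on both wild type arrays. Without sample B of Wild001 14 probes were called, and without sample A of Wild001 0 were called by limma, where the smallest adjusted p was 0.068 and 6314 probes had an unadjusted p under 0.05. With the samples of 1 title number averaged to 1 value, 0 probes were called (smallest adjusted p 0.277, 2060 probes at an unadjusted p under 0.05). With both wild type arrays kept and 1 mutant sample left out, 91 to 214 probes were called. Every gene described as risen or fallen below lost its call without sample A of Wild001, and among the 94 genes followed through the alternatives only Krt71 kept it without sample B of Wild001. Of these 94 genes, followed through up to 16 alternative settings each, 0 changed sign. This was largely fixed in advance. Many were named for large changes, and where the groups do not overlap, leaving out 1 sample cannot reverse the sign. Several settings also leave the difference between the group means as it was. The steady signs are therefore no separate support for the calls.

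**Figure D2:**
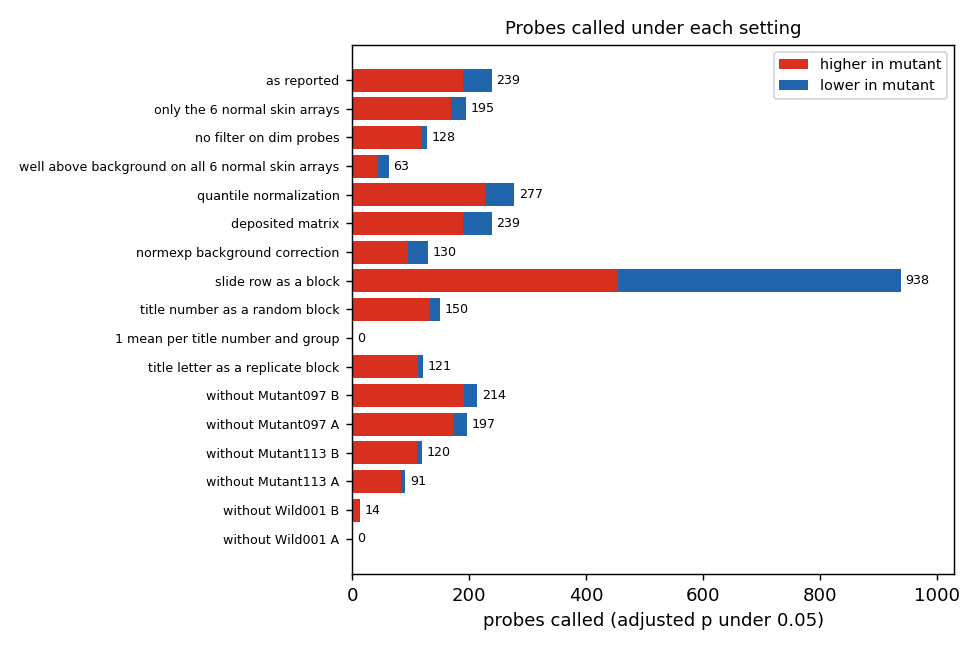
Bars give the number of probes called at an adjusted p under 0.05 under each setting, split into probes higher and lower in the mutants. The count is 239 as reported, 938 with slide row as a block, 14 without sample B of Wild001 and 0 without sample A of Wild001.

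Among genes with a full name, many of the largest rises outside the keratins were in proteins of the inner root sheath, medulla and hair cuticle. Of 20 such genes tested, 5 rose and 0 fell (Tchh, Tchhl1, Padi3, S100a3 and Prr9). All 41 gene lists were chosen with earlier results of these data known. No count for a list, here or below, is therefore independent support. The median log2 change was 1.43, against 0.02 over all genes tested, and 13 of the 20 had all 4 mutant samples above both wild type samples, a state that 16.9% of all genes were in. The promoters of 3 of these genes are shown because the genes rose together, and those of Gpx3 and Cyp2e1 because they were among the largest falls. They are RefSeq sequences of the assembly GRCm38.p6, 5′ to 3′ on the strand of the gene, from 250 bases before to 50 bases after the start. Capitals mark matches, on either strand, to TATAAA (the TATA box), to CCAAT (the box of that name) and to CTTTGA (the core of LEF and TCF sites). The marked motifs do not overlap one another.
The spans are chr3:93442080-93442379 (plus strand) for Tchh, chr4:140810599-140810898 (minus) for Padi3, chr3:92123898-92124197 (minus) for Prr9, chr11:54902604-54902903 (plus) for Gpx3 and chr7:140763569-140763868 (plus) for Cyp2e1.
Tchh: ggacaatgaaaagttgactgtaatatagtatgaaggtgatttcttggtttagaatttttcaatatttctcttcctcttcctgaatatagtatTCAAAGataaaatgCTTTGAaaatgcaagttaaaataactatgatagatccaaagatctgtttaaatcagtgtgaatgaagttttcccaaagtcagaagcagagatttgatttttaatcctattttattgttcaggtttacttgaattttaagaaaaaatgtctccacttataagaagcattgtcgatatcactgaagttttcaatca
Padi3: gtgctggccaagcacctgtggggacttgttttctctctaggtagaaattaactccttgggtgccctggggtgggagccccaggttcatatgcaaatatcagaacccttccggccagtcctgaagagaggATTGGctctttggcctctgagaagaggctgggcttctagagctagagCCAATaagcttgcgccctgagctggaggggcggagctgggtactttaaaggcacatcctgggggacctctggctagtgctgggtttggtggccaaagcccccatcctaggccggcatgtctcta
Prr9: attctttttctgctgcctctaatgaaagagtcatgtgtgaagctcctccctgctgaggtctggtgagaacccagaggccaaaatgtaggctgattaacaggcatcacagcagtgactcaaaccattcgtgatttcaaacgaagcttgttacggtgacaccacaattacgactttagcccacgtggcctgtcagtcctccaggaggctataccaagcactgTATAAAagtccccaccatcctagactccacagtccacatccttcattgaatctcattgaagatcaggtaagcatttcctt
Gpx3: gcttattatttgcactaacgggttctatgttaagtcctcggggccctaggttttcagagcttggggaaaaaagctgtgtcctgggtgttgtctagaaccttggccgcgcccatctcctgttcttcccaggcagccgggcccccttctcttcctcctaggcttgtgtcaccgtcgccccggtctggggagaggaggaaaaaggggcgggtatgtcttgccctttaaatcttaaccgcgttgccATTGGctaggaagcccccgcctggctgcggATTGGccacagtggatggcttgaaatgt
Cyp2e1: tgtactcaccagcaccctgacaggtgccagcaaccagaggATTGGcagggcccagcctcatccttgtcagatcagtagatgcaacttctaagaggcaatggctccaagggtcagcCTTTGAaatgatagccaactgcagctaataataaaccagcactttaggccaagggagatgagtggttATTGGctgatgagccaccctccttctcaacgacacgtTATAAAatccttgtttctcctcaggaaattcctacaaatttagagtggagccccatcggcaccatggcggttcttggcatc

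Tchh held the LEF and TCF core on both strands, Padi3 the CCAAT box on both strands, and Prr9 a TATA box starting 30 bases before its start. Among 32851 promoters of the same length, 13.6% held the TATA box, 37.4% the CCAAT box and 5257 promoters the LEF and TCF core. A promoter was listed for 47 of the 65 genes that rose outside the hair lists, and of these 14 held the TATA box, 18 the CCAAT box and 12 the LEF and TCF core. Over all genes tested that had a promoter listed, the shares were 9.0%, 38.2% and 12.6%. For the 21 genes that fell, 19 had one, and 5, 9 and 2 of them held these motifs in the same order. A match is a run of letters and says nothing of binding.

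Tchh encodes trichohyalin, the scaffold that hardens in the inner root sheath and medulla. Its level was 7.17 and 5.93 in Mutant097 (samples B and A), 8.44 and 7.80 in Mutant113, and 0.02 and -0.72 in wild type. The groups were far apart, with a log2 change of 7.69 (SE 0.64, 206-fold, limma adjusted p 0.00641). Tchhl1, a relative of trichohyalin in the same S100 fused-type family, was at 5.46, 4.59, 7.88 and 6.85 in the mutants and at -1.20 and -2.36 in wild type. The change was 7.98 (SE 0.89, adjusted p 0.0128). Padi3, the deiminase that acts on trichohyalin, was at background on both wild type arrays. Its mutant levels were 4.09, 2.83, 5.49 and 4.42, at least 192-fold higher (adjusted p 0.00675, group means 4.21 and -3.86). S100a3, a calcium-binding protein of the hair cuticle and a substrate of that deiminase, lay between 5.01 and 6.99 in the mutants and at -1.23 and -1.62 in wild type. Its change was 7.52 (SE 0.61, adjusted p 0.00614). Prr9, a proline-rich protein of the epidermal differentiation complex, had the highest wild type levels of the 5, 1.06 and 1.34, against 5.97 to 8.64 in the mutants. It rose by 6.18 (SE 0.68, adjusted p 0.0114).

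The other 15 genes of this list included several in general use in the epidermis. Cdsn, a desmosomal protein, had a log2 change of 0.22 (adjusted p 0.685), and Tgm3, a transglutaminase of the inner root sheath, was at -0.63 (adjusted p 0.230), below wild type in all 4 mutants. Padi1 and Padi4, further deiminases, had changes of 3.29 and 2.18 that did not pass the test (adjusted p 0.127 and 0.147).

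Hair keratins and their partners give the scale of these rises. Of 22 hair keratins tested, 16 rose, with a median change of 6.18, and of 49 keratin-associated proteins, 24 rose, with a median of 7.44. In these lists 11 and 28 genes were at background in the dimmer group, and with those set to their bounds (0 where the bound gave no fold) the medians were 5.66 and 6.22. Krt71, a keratin of the inner root sheath, was at 9.09, 7.98, 9.52 and 8.94 in the mutants and at 1.28 and -1.69 in wild type (change 9.09, SE 0.79, adjusted p 0.00675). Krt34, a shaft keratin at background in wild type, was at least 480-fold higher (adjusted p 0.00978, group means 5.53 and -5.16).

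Genes outside these lists by symbol rose as well. The largest fitted changes were in Gm11563, Gm11567, Gm11938 and Gm11554, known by locus identifiers and named after their values were seen. They may be keratin-associated proteins that the list, drawn by symbol, missed, which was not tested. All 4 were called and at background on both wild type arrays, and they were at least 99.3-fold to 408-fold higher. Gprc5d, an orphan receptor of hard-keratin cells, was at background in wild type and at 3.34, 3.37, 6.43 and 5.67 in the mutants, at least 255-fold higher (adjusted p 0.0144, group means 4.70 and -3.41). Its second probe had a change of 5.84 that did not pass (adjusted p 0.0526). Lrrc15, a leucine-rich repeat membrane protein, was at 4.63, 3.63, 5.93 and 4.86 against -1.64 and -2.60 (change 6.88, SE 0.62, adjusted p 0.00819). Fbp1, an enzyme of gluconeogenesis, was at 4.30, 2.87, 4.13 and 3.44 against -2.74 and -3.19 (change 6.65, SE 0.52, adjusted p 0.00614). The levels of Fbp1 in Mutant097 and Mutant113 overlapped, and it was well above background on 1 of the 2 wild type arrays. Crnn, cornulin of the S100 fused-type family, was at 2.34 and 1.02 in Mutant097, 4.40 and 3.14 in Mutant113 and -2.75 and -4.74 in wild type. It rose by 6.47 (SE 0.92, adjusted p 0.0274), and the comparison of Mutant097 alone with wild type did not call it. Crnn too was well above background on 1 of the 2 wild type arrays, as was the secretin gene described next.

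Vsig8, an immunoglobulin-domain membrane protein, had mutant levels of 5.05, 4.71, 6.10 and 5.82 and wild type levels of -0.18 and -1.23, a rise of 6.12 (SE 0.66, adjusted p 0.0114). Ly6g6d, of the Ly6 family of surface proteins, rose by 5.58 (SE 0.75, adjusted p 0.0228), and Sct, the hormone secretin, by 5.43 (SE 0.70, adjusted p 0.0199). Crym, a thyroid hormone binding protein, rose by 4.94 (SE 0.72, adjusted p 0.0308) from -0.28 and -0.31 in wild type to between 3.07 and 6.04. Pinlyp, a phospholipase inhibitor, was 5.26 higher (SE 0.87) and passed the threshold narrowly (adjusted p 0.0469). Lyg2, of the lysozyme g family, was at background in wild type and at least 27.7-fold higher (adjusted p 0.0106, group means 1.42 and -5.17). Krt87, likewise at background in wild type, was at least 68.2-fold higher (adjusted p 0.0225). In these genes, as in all called probes, no mutant sample came within the wild type range.

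The gap junction genes Gjb2 and Gjb6, whose connexins couple keratinocytes and are expressed in follicles, rose as well. They were named after their values were seen. Gjb2 was at 4.93, 3.53, 5.94 and 4.58 in the mutants and -0.51 and 0.75 in wild type (change 4.62, SE 0.65, adjusted p 0.0261). Gjb6 was at 2.53, 1.01, 3.12 and 1.86 against -1.65 and -1.96 (change 3.93, SE 0.54, adjusted p 0.0237). Another call outside the lists was tied to a single probe. For the ribosomal protein gene Rpl6, 1 probe rose by 5.32 (adjusted p 0.0421) while its other 3 probes had changes of 0.03 to 0.10, so the gene is reported as uncertain.

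**Figure D3:**
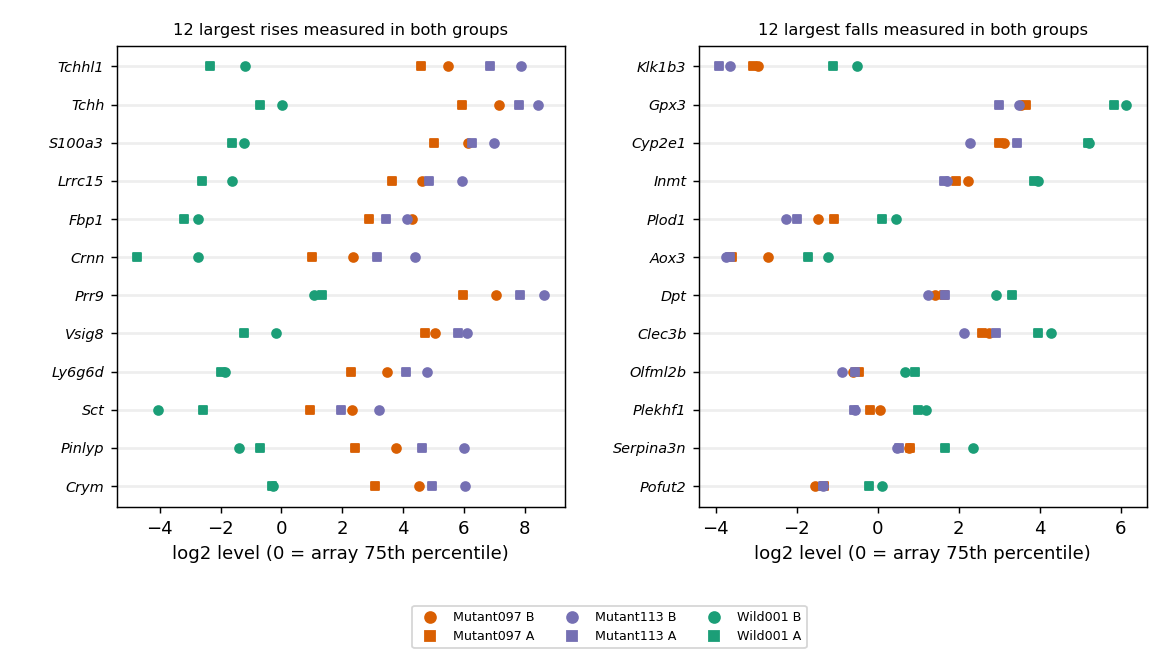
Each point is the log2 level of 1 gene in 1 normal skin sample (0 is the 75th percentile of the array); colour gives the title number, and circles and squares give samples B and A. In the left panel the mutant samples of the 12 largest rises lie to the right of both wild type samples in every row. In the right panel those of the 12 largest falls lie to the left, by smaller distances. Genes were drawn only if the groups did not overlap.

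Transcription factors of the hair matrix and forming shaft were next examined. Of 18 tested, 3 rose and 0 fell, with a median log2 change of 1.37, and 15 of the 18 had all mutants above wild type. Over all genes 0.722% rose and 16.9% had all mutants above. Setting 3 of the 18, whose wild type arrays were both at background, to their bounds gave a median of 1.12. The homeobox genes Dlx2 and Dlx4 were at background on both wild type arrays. Dlx2 was at 0.43, -0.81, -0.26 and -1.29 in the mutants, at least 7.42-fold higher (adjusted p 0.00978, group means -0.48 and -5.43), and Dlx4 was at least 6.29-fold higher (adjusted p 0.0130, group means -0.72 and -5.37). Hoxc13, which controls hair keratin genes, was at 2.48, 1.37, 2.81 and 1.88 against -0.50 and -1.20 (change 2.98, SE 0.48, adjusted p 0.0437). Msx2 and Lef1, named after their values were seen, had changes of 2.82 and 2.26 that did not pass the test (adjusted p 0.0527 and 0.137). Dlx3, the family member with the highest mean level, had a change of -0.16.

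Signalling genes upstream of the matrix gave 0 calls in the pooled comparison. The count of genes called was 0 of 26 for the Wnt pathway, 0 of 11 for the Hedgehog pathway, 0 of 22 for BMP and FGF signals and 0 of 11 for dermal papilla markers, with medians of 0.31, 0.20, 0.05 and -0.02. At an unadjusted p under 0.05 in limma, these lists had 9, 5, 5 and 1 genes, and 5200 of all 29563 probes met that level. Gli1, a target of Hedgehog signalling, was at 3.84 and 3.31 in Mutant097, 2.06 and 1.86 in Mutant113 and 1.58 and 0.83 in wild type. It was called only in the comparison of Mutant097 with wild type (2.37), and so was the Hedgehog inhibitor Hhip (3.29). Fgf5, whose product ends the growth phase, was at background in wild type and in 1 of the 4 mutants (adjusted p 0.127).

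The mean level of cell division genes was higher in every mutant sample than in wild type, while 0 of the listed genes passed the threshold by their brightest probe in the pooled comparison. Their mean level was 1.77 and 1.17 in Mutant097, 0.78 and 0.36 in Mutant113 and -0.78 and -0.18 in wild type. Of 30 genes tested, 23 had all mutants above wild type, the median change was 1.81, and 0 were called by limma, though 23 had an unadjusted p under 0.05. Over all genes 16.9% had all mutants above wild type, and 5200 of all 29563 probes had an unadjusted p under 0.05. A dimmer probe of Ube2c, a ubiquitin-conjugating enzyme of mitosis, was called (2.02, adjusted p 0.0489), while its brightest was not (2.05, adjusted p 0.0554). Against wild type, Mutant097 alone had 10 of the 30 called higher (median 2.29) and Mutant113 had 0 (median 1.24). Over all genes, 1.01% were called higher in Mutant097 and 2.01% in Mutant113. Mki67, the proliferation marker, was at 4.43, 3.71, 3.18 and 2.79 in the mutants and 1.30 and 1.76 in wild type (change 2.00, SE 0.44, adjusted p 0.103). The replication genes Mcm6 and Pcna, with the highest mean levels of the list, had changes of 0.37 and 0.34 (adjusted p 0.539 and 0.594). Outside the list, Kif15, a mitotic kinesin, and Prr11 were called, at least 1.38-fold and 1.93-fold higher than a wild type at background (adjusted p 0.0225 and 0.0228). They were named after their values were seen.

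Melanocyte genes split. Of 14 tested, 0 were called by limma (10 at an unadjusted p under 0.05), 7 had all mutants above wild type and 2 all mutants below, with a median of 1.57. Over all genes 16.9% had all mutants above wild type and 13.9% all below, so the count below is near that share. With 4 genes at background in the dimmer group set to their bounds the median was 0.64, and without sample A of Wild001 it was 1.01. The pigment enzyme Dct was at 5.50, 3.38, 4.18 and 2.86 against 2.28 and 0.95 (change 2.37, SE 0.73, adjusted p 0.175), and the melanosome protein Pmel had a change of 3.43 (SE 0.90, adjusted p 0.142). Mlana, another melanosome protein, went the other way, at 3.49, 2.91, 2.34 and 1.05 against 4.17 and 4.17 (change -1.73, SE 0.67, adjusted p 0.248). Mitf, the lineage factor, had a change of 0.12 (adjusted p 0.761). Sample B was higher than sample A for Dct and Pmel within each title number, wild type included.

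Immediate early genes, which cells switch on within minutes of a stimulus or of tissue handling, also had higher mean levels in the mutants, 2.54 to 3.16 against 1.30 and 1.91 in wild type. Of 16 tested, 1 rose (0.722% of all genes did), 12 had all mutants above wild type (16.9% of all genes), and the median was 0.96. Egr1 was at 4.80, 4.87, 4.66 and 4.98 in the mutants and at 1.79 and 2.60 in wild type, a rise of 2.63 (SE 0.33, 6.21-fold, adjusted p 0.0175). The 4 mutant values were close together. Fos had a change of 2.49 (SE 0.53, adjusted p 0.0951) and Ccn1 one of 1.79 (SE 0.33, adjusted p 0.0625). Jund and Klf4, among the members with the highest mean levels, had changes of 0.05 and 0.18. Btg2, an antiproliferative gene often induced with this group, rose by 1.15 (SE 0.19, adjusted p 0.0446), a call held in 4 of 16 alternative settings. Heat shock genes had 0 of 9 called (0 at an unadjusted p under 0.05) and a median of 0.08. The part of tissue handling was not tested.

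Called falls were fewer and smaller than called rises in the pooled comparison, whose filter more readily admitted rises from background. Some of the falls were in enzymes of detoxification and redox metabolism. That list, like the others, was chosen with earlier results of these data known, so its count of falls is not independent support. Of 30 such genes tested, 4 fell and 0 rose (Gpx3, Cyp2e1, Inmt and Aox3), against 0.144% of all genes called lower. The median was -0.54, and 13 of the 30 had all mutants below wild type, a state that 13.9% of all genes were in. Gpx3, the secreted glutathione peroxidase, was at 3.54, 3.66, 3.49 and 2.99 in the mutants and 6.14 and 5.83 in wild type. It fell by 2.56 on the log2 scale (SE 0.23, 5.91-fold, adjusted p 0.00711). This was a bright probe in both groups, and the call held in 13 of 16 alternative settings. Cyp2e1, a cytochrome P450 that oxidises ethanol and other small molecules, lay between 2.29 and 3.44 in the mutants, against 5.22 and 5.20. It fell by 2.24 (SE 0.30, adjusted p 0.0228), and its second probe by 2.33 (adjusted p 0.0159). Inmt, an indolethylamine N-methyltransferase, was at 2.23, 1.94, 1.71 and 1.63 against 3.95 and 3.86 and fell by 2.03 (SE 0.23, adjusted p 0.0130). The aldehyde oxidase Aox3 fell by 1.95 (SE 0.32, adjusted p 0.0469) and was well above background in 3 of the 4 mutants, a call held in 3 of 15 alternative settings. The metallothioneins Mt1 and Mt2, with the highest mean levels of the list, had changes of 0.23 and 0.73 (adjusted p 0.796 and 0.419).

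The glandular kallikreins Klk1b3, Klk1b24 and Klk1b4 fell. These serine proteases of the Klk1 cluster are near-identical copies, so probes may read more than 1 of them. Klk1b3 was at -2.96, -3.09, -3.65 and -3.91 against -0.50 and -1.10 and fell by 2.60 (SE 0.33, adjusted p 0.0186). Klk1b24 and Klk1b4 were at background in all mutants, at least 4.94-fold and 3.05-fold lower (adjusted p 0.0431 and 0.0201, mutant means -4.24 and -4.67, wild type means -1.62 and -2.31). The next members, named after their values were seen, had larger changes that did not pass in the pooled comparison. They were Klk1b5 (-3.40, adjusted p 0.101), Klk1b26 (-3.39, adjusted p 0.0620) and Klk1 (-3.13, adjusted p 0.0785). Each was called lower when Mutant097 and Mutant113 were set against wild type separately. In the same order they were well above background in 2, 1 and 2 of the 4 mutants. The epidermal kallikreins did not follow. Klk5, which cleaves the links between cornified cells, had a change of 0.27, and Klk13 rose from background by at least 4.24-fold (adjusted p 0.0359, group means -1.29 and -3.82). Over the 15 kallikreins tested 3 fell and 1 rose, against 0.144% and 0.722% of all genes, and the median was -0.97. In the separate comparisons 5 were called lower in Mutant097 and 6 in Mutant113, against 0.213% and 1.95% of all genes. With probes required to be well above background on all 6 arrays the median was 0.27. Under normexp background correction 0 kallikreins were called, the median was -0.31 and Klk1b3 had a change of -1.07 (adjusted p 0.0593, with 0.00335 to 0.445 over all its alternatives).

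The other falls included Dpt and Clec3b, of the lists of dermal matrix genes and fibroblast markers, and genes on neither list. Dermatopontin (Dpt), a collagen-binding matrix protein, was at 1.43, 1.63, 1.25 and 1.67 in the mutants and at 2.93 and 3.32 in wild type. It fell by 1.63 (SE 0.25, adjusted p 0.0365). Clec3b (tetranectin), a plasminogen-binding protein of fibroblasts, fell by 1.53 (SE 0.24, adjusted p 0.0416). Plod1, the lysyl hydroxylase of collagen, fell by 1.99 (SE 0.33, adjusted p 0.0464), though its second probe did not pass (-1.58, adjusted p 0.120). Olfml2b, an olfactomedin-like secreted protein, fell by 1.43 (SE 0.20, adjusted p 0.0273), and Pofut2, an O-fucosyltransferase of the secretory pathway, by 1.34 (SE 0.18, adjusted p 0.0236). Serpina3n, a serine protease inhibitor, and Plekhf1, a lysosomal and endosomal protein, fell by 1.37 and 1.41 (both adjusted p 0.0480), with the call for Serpina3n held in 4 of 16 alternative settings.

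Collagens and other dermal matrix genes as a list had 1 of 26 called lower (Dpt) and a median of -0.78, with 14 of the 26 below wild type in all mutants, against 13.9% of all genes. Without sample B of Wild001 the median was -0.45. The major fibrillar collagens were not called. Col3a1 was at 8.37 and 8.50 in Mutant097, 6.79 and 6.60 in Mutant113 and 9.40 and 8.70 in wild type (change -1.49, SE 0.61, adjusted p 0.266). Col1a1 overlapped, at 7.66 and 8.12, 6.37 and 6.30, and 8.55 and 7.59 (change -0.96, adjusted p 0.449). The list median against wild type was -1.10 for Mutant113 and -0.41 for Mutant097. At an unadjusted p under 0.05, 11 of the 26 were lower and 0 higher. Fibroblast markers had 2 of 13 called lower, against 0.144% of all genes, and a median of -0.68, which was -0.29 without sample B of Wild001.

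Macrophage and dendritic cell markers lay below wild type in most cases. Of 26 tested, 3 fell, 21 had all mutants below wild type and 1 all above, and the median was -0.86. Over all genes 0.144% fell and 13.9% had all mutants below wild type. The mean level of the list in the mutants was 2.58, 2.80, 2.56 and 2.65, against 3.39 and 3.53 in wild type. The complement genes C1qa and C1qb, made by tissue macrophages, were at 2.21 to 2.62 and 2.29 to 2.66 in the mutants, below wild type levels of 3.52 and 3.89 and of 3.62 and 3.86. They fell by 1.24 (SE 0.21, adjusted p 0.0469) and 1.23 (SE 0.20, adjusted p 0.0463). Their partner C1qc had a change of -0.94 (adjusted p 0.0749). Folr2, a folate receptor of resident macrophages, fell by 1.27 (SE 0.21, adjusted p 0.0480). These 3 calls were fragile, since each held in only 2 of 16 alternative settings. Csf1r, the receptor of the macrophage growth factor, had its brightest probe at -1.02 (adjusted p 0.154), and 1 of its 3 probes was called (-1.50, adjusted p 0.0295). Irf4, a factor of dendritic cells and lymphocytes, fell by 1.31 (SE 0.22, adjusted p 0.0477). Cd207, the Langerhans cell marker, had a change of 0.36 and the epithelial and Langerhans marker Epcam one of 0.90, neither called.

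Alopecia areata is known for T cells around the follicle, interferon signalling and raised antigen presentation. In this skin, labelled as normal, T and NK cell markers had 0 of 17 called and a median of 0.05. Their mean levels were -0.47 to 0.36 in the mutants and 0.17 and 0.15 in wild type. Interferon response genes had 0 of 22 called and a median of -0.45 (-0.70 without sample B of Wild001, -0.13 without sample A). Of these 22, 0 were above wild type in all mutants and 6 below. MHC class I genes had 0 of 15 called and a median of -0.27, and class II genes 0 of 11 and a median of -0.53. In all mutants, 4 class I and 4 class II genes were below wild type and 0 of either above. Over all genes 16.9% had all mutants above wild type and 13.9% all below. At an unadjusted p under 0.05 in limma, 0 T and NK cell, 2 interferon, 2 class I and 3 class II genes differed, all of them lower in the mutants. B2m, the light chain of class I, was at 6.21, 6.57, 6.50 and 6.42 against 6.76 and 7.15 (change -0.53, adjusted p 0.346). Cd74, the class II chaperone, had a change of -0.62 (adjusted p 0.283). Chemokines had 0 of 22 called (4 at an unadjusted p under 0.05) and a median of -0.09.

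**Figure D4:**
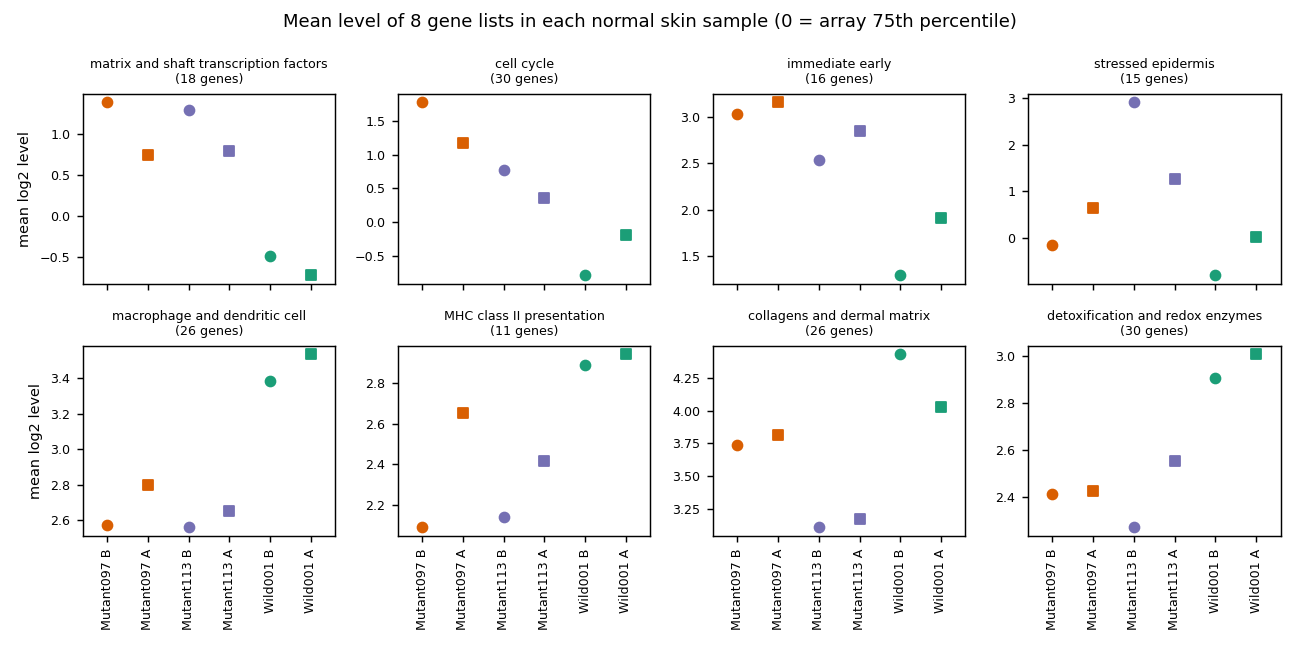
Each panel plots, for 1 gene list, the mean log2 level of its tested genes (vertical axis, 0 is the 75th percentile of the array; scales differ between panels and do not start at 0) in each of the 6 normal skin samples. Macrophage and dendritic cell markers lie between 2.56 and 2.80 in the mutants and at 3.39 and 3.53 in wild type, while matrix transcription factors lie between 0.75 and 1.39 in the mutants and at -0.50 and -0.72 in wild type.

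Lists for the bulge, sebaceous gland, fat and epidermis between follicles held 0 called genes. Bulge stem cell markers (0 of 12 called, median -0.04), sebaceous gland markers (0 of 16, median -0.01) and adipocyte markers (0 of 17, median 0.17) had 3, 1 and 2 genes at an unadjusted p under 0.05 in limma. Krt15 in the bulge was at 7.57, 7.91, 7.24 and 7.66 against 7.73 and 7.83. Interfollicular epidermis had 0 of 21 called (6 at an unadjusted p under 0.05) and a median of 0.32. Genes of stressed epidermis, such as Krt6a, Krt16 and the small proline-rich proteins, had 0 of 15 called (4 at an unadjusted p under 0.05) and a median of 1.39, or 0.87 without sample B of Mutant113. That sample stood highest in their mean level at 2.92, against -0.16 to 1.27 in the other mutants and -0.80 and 0.01 in wild type. Krt6a was at 4.20 in that sample and between 1.36 and 2.17 in the other mutants.

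Other tissues in the samples gave 0 calls in the pooled comparison. Skeletal muscle markers, from the muscle layer under the skin, had a median of -1.04 in Mutant097 and 0.09 in Mutant113 against wild type, with 0 of 29 called in the pooled comparison (3 at an unadjusted p under 0.05). Red blood cell markers had a median of 1.07 (0.59 and 1.54) with 0 of 7 called, and nerve markers one of -0.41 with 0 of 11 called (3 and 5 at an unadjusted p under 0.05). Circadian clock genes had 0 of 18 called (8 at an unadjusted p under 0.05) and a median of -0.31, and 9 of the 18 were below wild type in all mutants, against 13.9% of all genes (5200 of 29563 probes had an unadjusted p under 0.05). The clock output gene Dbp was at 5.25, 5.33, 5.20 and 5.68 against 6.75 and 6.40 (change -1.21, adjusted p 0.144). Per2 had a change of -1.99 (adjusted p 0.148), Nfil3 one of 1.67 (adjusted p 0.0590) and Arntl one of 1.02 (adjusted p 0.149), and these 3 were named after their values were seen. Per2 was called lower when Mutant097 (-1.97) and Mutant113 (-2.01) were set against wild type separately. With only the 6 normal skin arrays in the fit, 1 of the 18 clock genes was called lower. 

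Around Cchcr1 itself, 1 of 10 neighbouring PSORS1 genes rose, against 0.722% of all genes, and the median was 0.28. Of the 10, 5 had all mutants above wild type and 0 all below, against 16.9% and 13.9% of all genes. Psors1c2, a proline-rich secreted protein of the epidermis, was at 4.76 and 4.74 in Mutant097, 6.95 and 6.48 in Mutant113 and 1.24 and 1.54 in wild type. It rose by 4.34 (SE 0.73, 20.3-fold, adjusted p 0.0489), and the call held in only 4 of 16 alternative settings. Cdsn and Tcf19, others of these neighbours, had changes of 0.22 and -0.14 (adjusted p 0.685 and 0.795). Genes of centrosome and P-body proteins, the compartments where the Cchcr1 protein is found, had 0 of 14 called (1 at an unadjusted p under 0.05) and a median of 0.19.

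The mutant numbers were then set against wild type separately. Both contrasts share the same wild type arrays, so their values are given side by side only. Of 14550 genes, Mutant097 had 1.01% called higher and 0.213% lower, and Mutant113 had 2.01% higher and 1.95% lower. In probes this was 355 and 1078. The 65 genes that rose outside the hair lists had medians of 3.60 in Mutant097 and 4.29 in Mutant113. In all mutants the median was 4.07, and it was 2.998 once 32 of the 65, whose wild type arrays were both at background, were set to their bounds. Both samples of Mutant113 lay above both samples of Mutant097 for 31 of these 65, and below for 2. For the 21 genes that fell the medians were -1.38 and -1.59, and Mutant113 lay below for 9 and above for 0. Over all genes tested the order was 3067 above and 5180 below. Slide row, title number and the sex-linked transcripts Xist, Ddx3y and Eif2s3y all differ between Mutant113 and Mutant097, and their parts cannot be told apart.

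Compared directly, Mutant113 and Mutant097 differed in 49 genes of 14550 (0.337%), called in either direction. Only 2 of the 65 rises were among them, Krt87, higher in Mutant113 by 3.28 (adjusted p 0.0383), and Gprc5d, higher by 2.70 (adjusted p 0.0462). Of the 21 falls, 0 were. With slide row as a block, which leaves only Mutant113 against wild type, 938 probes were called, 455 higher and 483 lower.

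**Figure D5:**
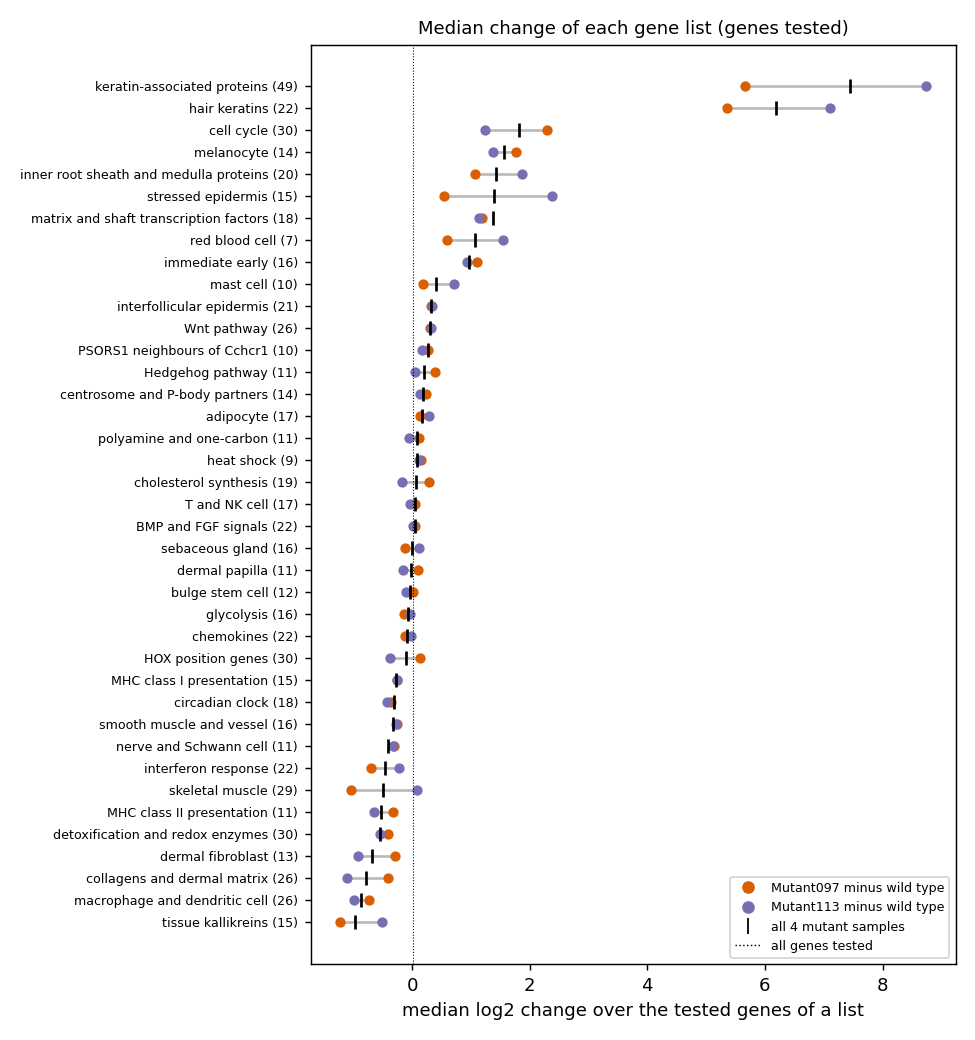
For each gene list with at least 7 genes tested (number in parentheses), points give the median log2 change of its genes in Mutant097 and in Mutant113 against the same wild type arrays, the bar the median in all 4 mutant samples, and the dotted line the median of all genes (0.02). The list of sex-linked genes, with 7 tested, was not drawn. Cell cycle genes sit at 2.29 and 1.24, stressed epidermis at 0.54 and 2.38, skeletal muscle at -1.04 and 0.09, and macrophage markers at -0.73 and -0.98.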

How the data were processed

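RNA of 8 skin samples was measured on 1 slide of Agilent single-colour arrays read in 1 scan. Per the file headers, the processed intensity of a spot is background-subtracted and detrended by Agilent Feature Extraction 11.5.1.1 (version also in the submitters' processing notes). The deposited matrix holds log2 values, and for all 55603 probes it lay within 0.01 of the log2 processed intensity minus 1 constant per array. The genome build behind the gene table used for names is GRCm38.p6, while the array design names mm9, so no gene positions are given except for promoters.

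Of 62976 spots per array, 59305 were not controls. Outlier spots, 118 to 210 per array, were left out and 0 were saturated. Spots of a probe were averaged as log2 intensity and the 75th percentile of the array was subtracted. Symbols came from RefSeq accessions for 26546 probes. Probes were tested when well above background on at least 2 of the 6 normal skin arrays. limma 3.58.1 in R 4.3.3 fitted 3 groups to all 8 arrays (5 residual and 2.77 prior degrees of freedom), two-sided, with Benjamini-Hochberg adjustment over 29563 probes. A second model held 5 combinations of group and number. With 4 and 2 arrays, their number limits precision. For a probe at background on every array of the dimmer group, the fold is a bound against the lowest level of any probe well above background (or its own level if higher), averaged over the arrays.

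Genes named were, outside the hair lists, the 12 largest rises and 12 largest falls measured in both groups, up to 4 each way at background in the dimmer group, Cchcr1, up to 5 members of each list with the highest means and up to 3 called. Others are said to be named after their values were seen. These are 4 genes with locus identifiers, Ube2c, Gjb2, Gjb6, Rpl6, Btg2, Kif15, Prr11, Psors1c2, Irf4, Fos, Ccn1, Msx2, Lef1, Hhip, Fgf5, Padi1, Padi4, Tgm3, C1qc, Cd207, Epcam, Tcf19, Per2, Nfil3, Arntl and the kallikreins marked so. The 41 lists and the genes were chosen with earlier results of these data known. Fits were tested on simulated data. The 16 alternatives included normexp, which used the median spot and background signals. Figures were drawn with matplotlib 3.10.9.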

Additional observations from a re-analysis of the deposited data

Results flagged for a closer look

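Among the 4 mutant samples, single values stood apart from the other 3 by Dixon's ratio, which chance flags in about 1 in 20 groups; 135 genes and lists were looked at. Aox3 was at -2.72 in sample B of Mutant097 against -3.75 to -3.59 in the others. Pofut2 was at -1.54 in sample B of Mutant097 against -1.36 to -1.32. Klk13 was at -2.24 in sample A of Mutant113 against -1.04 to -0.87. The mean level of BMP and FGF signals was 1.38 in sample B of Mutant113 against 1.25 to 1.27.

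Of the 94 genes followed through the alternatives, 3 differed between the mutant numbers by the direct limma contrast, Mutant113 minus Mutant097. Over all 14550 genes tested, 49 did. The difference was 3.28 for Krt87 (adjusted p 0.0383), 3.08 for Krt34 (adjusted p 0.0383) and 2.70 for Gprc5d (adjusted p 0.0462).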

How the results depend on the processing

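The 239 calls became 128 with no filter on dim probes, 63 with probes well above background on all 6 arrays, 130 with normexp, 150 with title number as a random block (correlation 0.0757), 121 with title letter as a replicate block, 938 with slide row as a block and 0 with 1 mean per title number and group; the lone wild type mean is then assumed to vary like the others. Leaving out 1 sample each gave 0 to 214. Counts stayed within 1.5 times at 195 (6 arrays only), 277 (quantile) and 239 (deposited matrix), and 221 of the 277 were among the reported probes. Over the probes tested the letters did not pair the samples by the rule used, since the A minus B differences correlated at 0.190, -0.120 and 0.018 between the numbers. Single genes and lists did share a sign, with B above A in all 3 numbers for Tchh, Tchhl1, S100a3, Dct, Pmel and the mean levels of hair keratins, matrix factors and melanocyte genes. For Mutant097 the 355 calls became 135 with no filter and 205 with the filter on all 6 arrays, and for Mutant113 the 1078 became 476 with no filter; the cause was not tested. The bounds given as at least N-fold do not hold under normexp, where changes of dim probes are smaller, Dlx2 for example at 1.44. The sign of the list median changed in at least 1 setting for Hedgehog, BMP and FGF, dermal papilla, bulge, sebaceous, T and NK cell, chemokine, heat shock, glycolysis, cholesterol, polyamine, skeletal muscle and kallikrein genes. Under normexp the list medians moved to 0.93 for cell cycle genes, 0.78 for matrix and shaft factors, 4.71 for keratin-associated proteins, 0.30 for melanocyte genes and -0.17 for clock genes. Without sample B of Wild001 the Wnt median was 0.07, and without sample A of Wild001 the medians of red blood cell and interfollicular epidermis genes were 0.66 and 0.57.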
